A study of Mus musculus with 12 samples.

Results

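The antioxidant enzymes described here are the superoxide dismutases Sod1, Sod2 and Sod3, catalase (Cat), the glutathione peroxidases Gpx1 and Gpx4, the peroxiredoxins Prdx1, Prdx3 and Prdx6, and thioredoxin (Txn1). Their members were every probe whose accession belongs to 1 of these 10 genes, whatever its values, which gave 15 probes of the 39429 on the array and 10 genes of the 20886 with a named probe. In the livers of mice kept on 4 diets, none of the 10 genes was called different in any comparison. Hardly any probe of the array was, at most 0.0101% of all probes (DJ526 against DJ). The means of the 4 diets lay within 0.08 (Sod2) to 0.29 (Gpx1) log2 units of each other, that is, at most 1.22-fold apart.

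The RNA came from livers of female C57BL/6N mice killed after 6 months on the diet, 3 mice for each of the 4 groups, and each mouse had a 1-colour array of its own. Ctrl mice ate a normal formula diet with corn starch and sucrose as carbohydrates. RS mice ate the same diet with resveratrol, a plant stilbene, mixed in. DJ mice ate the diet with Dongjin rice in place of starch and sucrose, and DJ526 mice ate it with the rice DJ526, a Dongjin rice that carries a transferred gene for resveratrol synthesis, so that DJ526 differs from DJ in the transferred gene as well as in resveratrol. The methods say that cages were assigned to the groups at random, and also that single mice were divided among them after acclimation. The labels do not say which cage a mouse came from. The arrays lay on 3 slides, named by their barcodes. Ctrl and DJ replicate 1 were on slide 1, the remaining DJ arrays with RS replicates 1 and 2 on slide 2, and RS replicate 3 with all DJ526 arrays on slide 3, so that Ctrl shared no slide with RS or DJ526. A list of array identifiers in the study's own material names the DJ and RS arrays the other way round. The labels were followed here, and if that list is right, each value given for DJ belongs to RS and each value for RS to DJ, and the pooled comparisons of rice with starch and sucrose and of resveratrol with none trade places. This leaves the levels of Ctrl and DJ526 and their difference as they are.

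Superoxide leaks from respiration and is made by oxidases, and superoxide dismutases turn it into hydrogen peroxide: Sod1 in the cytosol with copper and zinc, Sod2 in the mitochondrial matrix with manganese, and Sod3 outside the cell. Hydrogen peroxide is then removed by catalase in peroxisomes and by glutathione peroxidases, among them the selenoproteins Gpx1 and Gpx4. It is also removed by peroxiredoxins, most of which are recharged by thioredoxin. Hepatocytes are rich in most of these enzymes. A part of the system answers to the transcription factor Nrf2 (gene Nfe2l2), which binds antioxidant response elements in promoters.

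The core of that element, TGACNNNGC, was looked for on both strands of promoter windows from 250 bases before to 50 bases after the start of transcription (RefSeq, GRCm38.p6), since it is the pattern that Nrf2 recognises, and its targets are read as a list below. The RefSeq table held 11 such windows for 8 of the 10 genes, and Sod3 and Prdx6 were not in it. The core was found in 2 of the 11, and in 12.4% of the 32851 windows of this length. Both matches are shown with their flanks, on the strand of the gene, with the match in capitals. It reads from the opposite strand in both and begins 133 bases before the start of Prdx1 and 56 bases before the start of Sod1.
Prdx1, chr4:116685456-116685484: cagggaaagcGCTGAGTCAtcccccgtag
Sod1, chr16:90220696-90220724: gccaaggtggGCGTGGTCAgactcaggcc
A match is a pattern of letters and not a measured site of binding, and neither gene was called different in these livers.

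Levels are given as log2 of the signal of the probe over the 75th percentile of its array, so that a level of 0 is the 75th percentile and 1 unit is a doubling. The 75th percentile of an array lay between 953 and 1167 signal units, 73.0% to 80.8% of the spots were well above background, and there were 0 saturated spots. All 15 probes were well above background on all 12 arrays. The 6 hepatocyte markers were well above background on all 12 arrays. In bulk liver RNA, fewer cells of a type and less RNA per cell cannot be told apart. A gene with several probes is described by its brightest probe, and probes are not compared with each other for level.

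Sod1, the cytosolic dismutase, had levels of 7.97, 7.85 and 8.01 in Ctrl, 7.87, 7.92 and 7.83 in RS, 8.06, 7.93 and 7.78 in DJ, and 7.74, 7.72 and 7.76 in DJ526. All 3 DJ526 arrays lay below the other 9, a pattern found in 1.53% of all probes and in 1 of the 10 genes, although the gap between the highest DJ526 array and the lowest of the others was small beside the range within DJ. The mean was 7.94 ± 0.08 in Ctrl and 7.74 ± 0.02 in DJ526 (SD, n = 3). The difference, DJ526 minus Ctrl, was -0.21 log2 units (SE 0.08, 95% interval -0.38 to -0.03), or 0.867-fold, which did not pass after adjustment (limma, adjusted p = 0.392). Its sign depended on the processing. Another background correction (normexp on the median pixel) gave a difference of 0.12, and a fit that blocked on slide gave 0.07. Within slide 3, the 3 DJ526 arrays were 0.09 log2 units below RS replicate 3 on average (difference -0.09).

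Sod2, the mitochondrial dismutase, had levels of 6.13, 6.11 and 6.07 in Ctrl, 6.28, 6.08 and 6.13 in RS, 6.21, 6.10 and 5.93 in DJ, and 6.05, 6.14 and 6.09 in DJ526. Every group overlapped every other, and the means, between 6.08 and 6.16, were the closest of the 10 genes. Sod3, the extracellular dismutase, had levels of 2.68, 2.88 and 2.80 in Ctrl, 3.04, 2.94 and 2.90 in RS, 2.67, 2.72 and 3.07 in DJ, and 2.83, 2.98 and 2.82 in DJ526. The 3 RS arrays lay above the 3 Ctrl arrays, as did those of 2 of the 10 genes against 6.24% of all probes, and the single highest array was DJ replicate 3. The order of the means was Ctrl, DJ, DJ526 and RS, and no neighbours in it were separate.

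Cat, which splits hydrogen peroxide in peroxisomes, was the other gene with all RS arrays above all Ctrl arrays. Its levels were 4.24, 4.17 and 4.17 in Ctrl, 4.33, 4.26 and 4.28 in RS, 4.15, 4.34 and 4.17 in DJ, and 4.29, 4.22 and 4.10 in DJ526. The means of the 4 groups spanned 0.10 log2 units. The second, dimmer probe of Cat put RS lowest, with a mean of 2.65 ± 0.06 against 2.66 ± 0.05 in Ctrl (SD, n = 3), and the order of its means was RS, Ctrl, DJ and DJ526. The separation of RS from Ctrl was thus seen by 1 of the 2 probes.

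Gpx1, the main cytosolic glutathione peroxidase, varied most between mice of the same group (pooled SD 0.248). Its levels were 8.32, 7.73 and 7.85 in Ctrl, 8.38, 7.85 and 7.70 in RS, 8.18, 8.18 and 8.11 in DJ, and 7.96, 7.72 and 7.93 in DJ526. The first replicate of Ctrl and of RS stood apart above the other 2 of its group, while the 3 DJ arrays lay together, above all 3 DJ526 arrays. Gpx4, which reduces lipid peroxides in membranes, had levels of 5.31, 5.45 and 5.37 in Ctrl, 5.42, 5.45 and 5.18 in RS, 5.50, 5.33 and 5.42 in DJ, and 5.11, 5.36 and 5.20 in DJ526. Its DJ526 mean of 5.22 ± 0.13 was the lowest and its DJ mean of 5.42 ± 0.08 the highest (SD, n = 3), and the arrays of both groups overlapped.

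Prdx1, a cytosolic peroxiredoxin, had levels of 6.11, 6.33 and 6.29 in Ctrl, 6.19, 6.06 and 6.26 in RS, 6.18, 6.30 and 6.13 in DJ, and 6.13, 6.29 and 6.36 in DJ526. Its 4 means, between 6.17 and 6.26, spanned 0.09 log2 units, less than its pooled SD of 0.108 between mice of the same group. The dimmer probe of Prdx1 put DJ highest (2.49 ± 0.17) and Ctrl lowest (2.36 ± 0.07; SD, n = 3), again with overlap.

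Prdx3, the mitochondrial peroxiredoxin, had levels of 3.02, 3.20 and 3.14 in Ctrl, 3.07, 3.00 and 3.07 in RS, 2.80, 3.20 and 3.16 in DJ, and 2.72, 3.07 and 2.85 in DJ526. The low arrays were DJ526 replicates 1 and 3 and DJ replicate 1. Its probe is printed 10 times on the array, and the SD between those spots, 0.0269 to 0.0594 log2 units within an array, was smaller than the pooled SD of 0.149 between mice of the same group, so that the spread of Prdx3 between arrays was larger than that between spots. The mean was 3.12 ± 0.09 in Ctrl and 2.88 ± 0.17 in DJ526 (SD, n = 3), and the difference of -0.24 (SE 0.11, 95% interval -0.49 to 0.01) was the largest in size between DJ526 and Ctrl and did not pass (limma, adjusted p = 0.479). The fit that blocked on slide gave -0.66 (95% interval -1.14 to -0.17, adjusted p = 0.299). DJ526 replicate 1 had the lowest level of Prdx3, and without it the difference was -0.16. Over the 12 arrays Prdx3 was lower where the summed signal of 5 lymphocyte markers was higher (Pearson r = -0.76, given as a description), the strongest relation in size between any of the 10 genes and any of the marker lists. That sum had a log2 level of 1.32 to 1.79 in Ctrl, 1.33 to 2.12 in RS, 1.53 to 3.09 in DJ and 1.64 to 2.84 in DJ526, and all 5 markers were well above background on all 12 arrays. The part of these cells in the level of Prdx3 was not tested.

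Prdx6, which reduces phospholipid peroxides, had levels of 7.49, 7.32 and 7.20 in Ctrl, 7.37, 7.36 and 7.42 in RS, 7.29, 7.28 and 7.28 in DJ, and 7.18, 7.22 and 7.24 in DJ526. The DJ526 arrays lay below the DJ arrays, both lay below all 3 RS arrays, and the Ctrl arrays spread over the levels of the other groups. The mean was 7.38 ± 0.03 in RS and 7.21 ± 0.03 in DJ526 (SD, n = 3), and their difference was -0.17 log2 units (SE 0.07, 95% interval -0.33 to -0.01), or 0.888-fold, which did not pass after adjustment (limma, adjusted p = 0.870). Within slide 3 it was -0.21 against the single RS array there. Prdx6 had 3 further probes. The brighter 2 of these gave -0.19 and -0.18 for DJ526 minus RS (limma, adjusted p = 0.709 and 0.835), and the faintest, whose mean level of -3.02 was far below the 75th percentile, had means of -3.00 ± 0.17 in DJ526 and -2.92 ± 0.08 in RS. On all 3 further probes, the DJ526 arrays overlapped the DJ arrays, and the DJ arrays overlapped the RS arrays. All DJ526 arrays lay below all RS arrays on the brightest of the 3 only.

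Txn1, which passes electrons to peroxiredoxins, had levels of 5.25, 5.39 and 5.31 in Ctrl, 5.52, 5.29 and 5.33 in RS, 5.37, 5.35 and 5.50 in DJ, and 5.28, 5.23 and 5.35 in DJ526. The lowest DJ array lay just above the highest DJ526 array, and all other pairs of groups overlapped. The means of the 4 groups spanned 0.13 log2 units, or 1.09-fold.

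**Figure D1:**
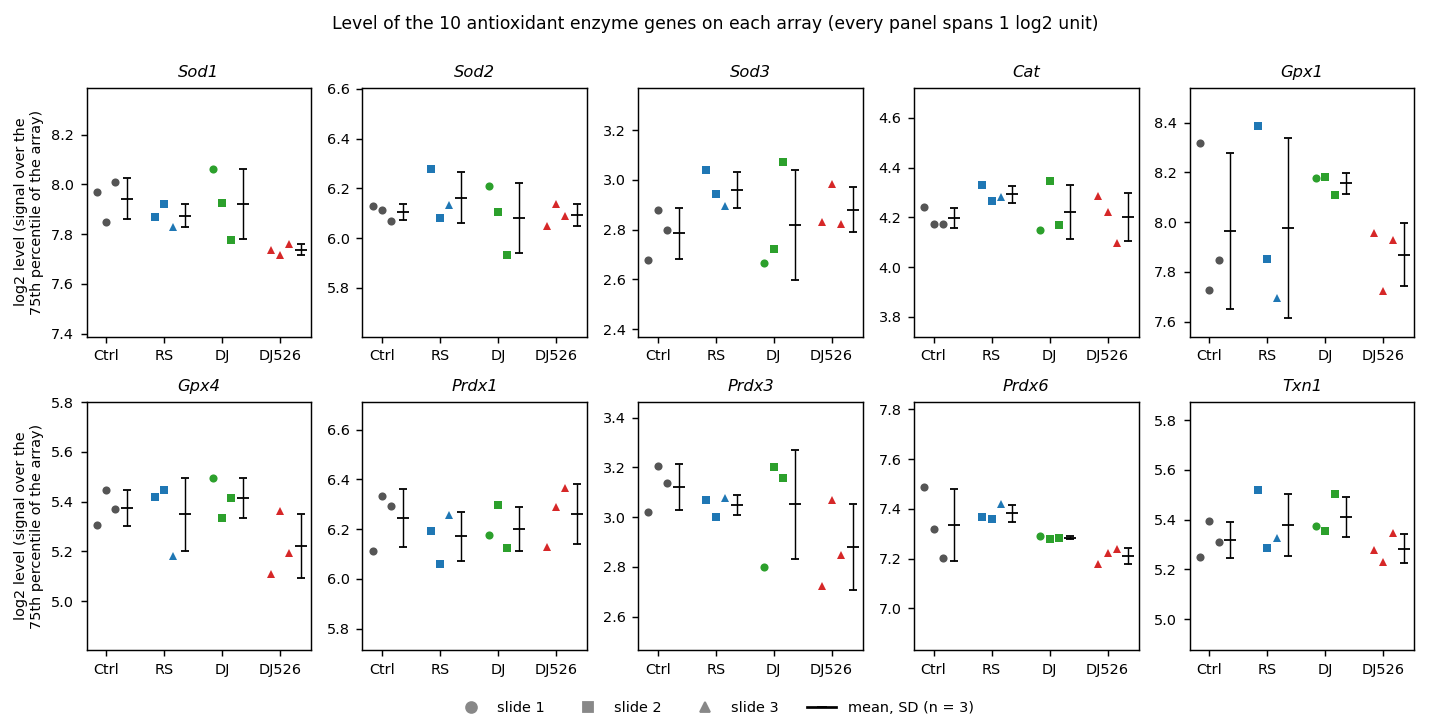
Level of each of the 10 genes on each of the 12 arrays, by diet (horizontal axis), as log2 of the signal over the 75th percentile of the array (vertical axis, 1 log2 unit in every panel); the shape of a point is its slide, and the bar beside the points is the mean with its SD (n = 3). Groups overlap in most panels, the DJ526 arrays of Sod1 (7.72 to 7.76) lie below the other 9, and Gpx1 has the widest spread within Ctrl and RS.

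The comparison of each diet with Ctrl asks how RNA levels of these genes differed on resveratrol, rice and the resveratrol rice. The arrays do not measure the amount or activity of the enzymes. For RS and DJ526, the difference in diet came with a difference in slide. Against Ctrl, the median difference of the 10 genes was 0.03 log2 units in RS, 0.00 in DJ and -0.06 in DJ526, where the medians of all probes were 0.03, -0.02 and 0.02. limma with Benjamini-Hochberg adjustment called 0 of the 10 genes in each of these comparisons, with 0%, 0% and 0.00507% of all probes called. At an unadjusted p under 0.05 it had 0, 0 and 1 of the 10 genes, the 1 being Sod1, where 6%, 5.22% and 10.8% of all probes passed in either direction. In DJ526, 7 of the 10 genes had a mean below that of Ctrl, against 46.7% of all probes, and 1, Sod1, had all arrays below those of Ctrl, against 8.08% of all probes. These 3 comparisons share the Ctrl arrays. For DJ526 against Ctrl, the signs depended on the processing. With normexp, Sod1, Gpx1, Prdx6 and Txn1 turned to above 0, and Cat and Prdx1 to below 0. With slide as a block, Sod1, Sod2, Gpx1 and Gpx4 turned to above 0, and Sod3, Cat and Prdx1 to below 0.

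DJ526 was then set against DJ, the same rice without the transferred gene, and against RS. limma called 0 of the 10 genes against DJ and 0 against RS, with 0.0101% and 0.00761% of all probes called, and had 1 gene at an unadjusted p under 0.05 in each, Sod1 against DJ (-0.18 log2 units, 95% interval -0.36 to -0.01, limma adjusted p = 0.489) and Prdx6 against RS, where 9.81% and 5.5% of all probes passed. Against DJ, 7 of the 10 genes were below 0, against 43.8% of all probes, with a median of -0.10. The arrays of 4 genes, Sod1, Gpx1, Prdx6 and Txn1, were all lower in DJ526 than in DJ, against 6.29% of all probes. For Prdx6 this held for its brightest probe only, and its further probes overlapped. Against RS, 9 of the 10 were below 0, all but Prdx1, against 50.6% of all probes, with a median of -0.10, and Sod1 and Prdx6 did not overlap (6.15% of all probes). The counts against Ctrl, DJ and RS share the same DJ526 arrays, all on slide 3, and are not independent of each other. Their signs also depend on the processing. Over all comparisons, 29 of 90 member differences changed sign with normexp and 33 of 90 with slide as a block. The summed signal of the hepatocyte markers was lower in DJ526 as well, with log2 levels of 10.44 to 10.50 against 10.64 to 10.72 in DJ and 10.53 to 10.64 in RS, while Ctrl, at 10.43 to 10.62, overlapped DJ526. The part of that sum in these differences was not tested. Without RS replicate 3, limma called 173, 107 and 28 of all probes for DJ526 against Ctrl, DJ and RS, and still 0 of the 10 genes. The methods' t-test on the same values had 9 of 80 member differences at an unadjusted p under 0.05, or 11.25%, against 6.94% over all probes in the same 8 comparisons, and 0 of the 80 after adjustment. DJ against RS in limma also had 0 genes called (0% of all probes), 0 at an unadjusted p under 0.05 (3.52% of all probes) and 1, Prdx6, whose arrays did not overlap (4.05% of all probes lower in DJ). The further probes of Prdx6 overlapped between DJ and RS.

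**Figure D2:**
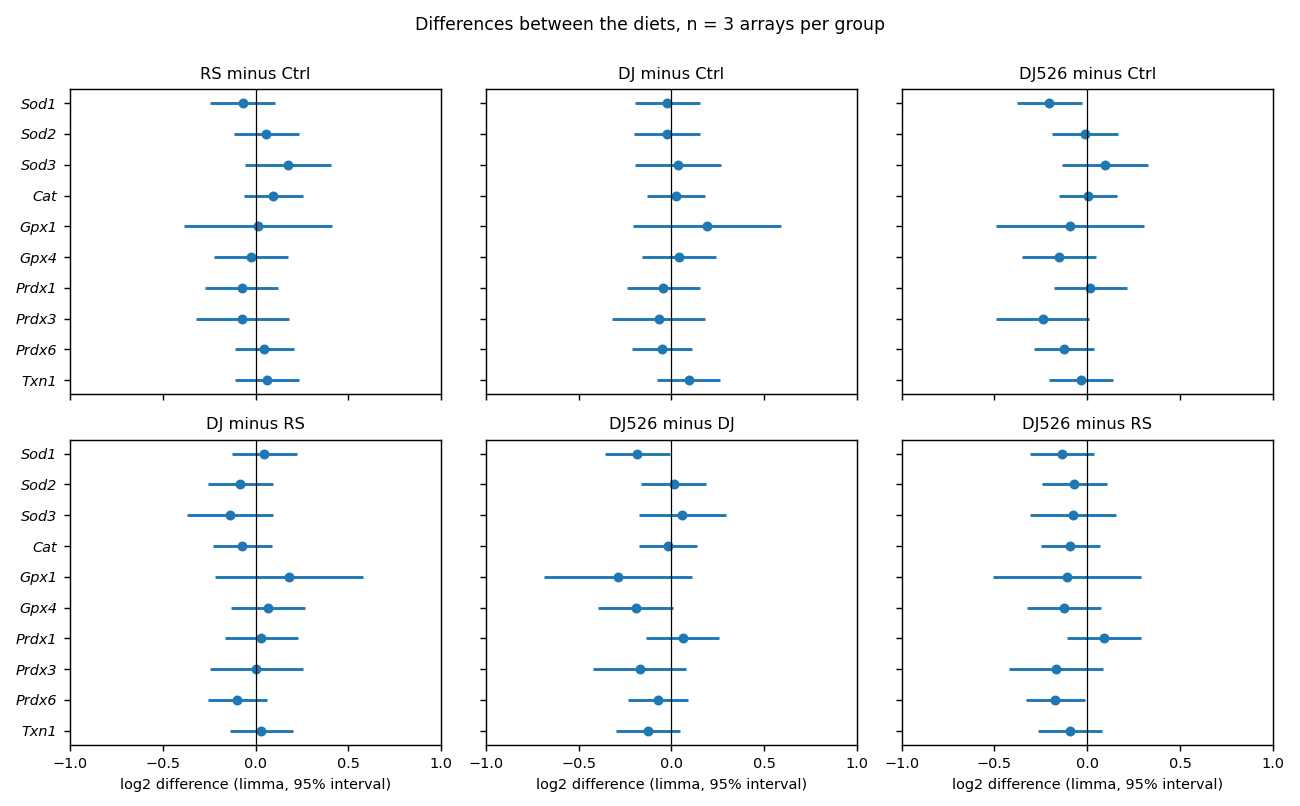
Differences between the diets for the 10 genes in the 6 pairs of groups, in log2 units (horizontal axis; points, with lines for the 95% interval of the limma fit, n = 3 per group). All 60 intervals lie between -0.68 and 0.59, and 3 of them do not reach 0: Sod1 in DJ526 minus Ctrl and DJ526 minus DJ, and Prdx6 in DJ526 minus RS.

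The absence of calls went with narrow intervals. Over the 60 differences of the 10 genes between pairs of groups, estimates ran from -0.29 to 0.19 log2 units, both ends from Gpx1. The lower end, DJ526 minus DJ, was 0.15 when slide was a block. The 95% intervals ran from -0.68 to 0.59, or 0.622-fold to 1.50-fold, and those of the 9 genes other than Gpx1 ran from -0.49 to 0.41. In 56 of the 60, the whole interval was within 0.5 log2 units of 0. The median of the pooled SD within groups was 0.0992 for the 10 genes, against 0.258 for all probes and 0.191 for the 27283 probes well above background on all 12 arrays. Intervals were wider in the fit that blocked on slide, where they ran from -1.14 to 1.30, or 0.452-fold to 2.46-fold, since Ctrl and DJ526 are then linked only through DJ and RS. A test of any difference among the 4 groups (limma F test) gave Sod1 the smallest p of the 10 genes (limma, adjusted p = 0.725), and 0 of the 10 passed, as did 0.00507% of all probes.

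Taking the diets as a cross of carbohydrate and resveratrol, limma called 0 of the 10 genes and 0% of all probes for rice against starch and sucrose, for resveratrol against none, and for whether resveratrol acted differently on the 2 carbohydrates (their interaction). In exact two-sided permutation tests over the 924 ways to divide the 12 arrays into 6 and 6, run once for each gene and each of the first 2 questions (20 tests, unadjusted), Prdx6 was lower on rice (7.25 against 7.36, exact p = 0.0346) and Sod1 was lower with resveratrol (7.81 against 7.93, exact p = 0.0455). The other 9 genes in each had an exact p over 0.05. The permutation test was run on the 10 genes only, so that no share of all probes can be set beside these results. With the DJ and RS arrays named the other way round, both would change place, so that the lower Prdx6 goes with resveratrol and the lower Sod1 with rice. For these same differences limma gave adjusted p = 0.975 and 0.490. The further probes of Prdx6, from the brightest to the faintest, gave -0.09, -0.13 and -0.01 for rice minus starch and sucrose (limma, adjusted p = 0.975, 0.975 and 0.994). The Sod1 difference with resveratrol had the opposite sign with normexp (0.09) and when slide was a block (0.06). As labelled, slide 1 held only arrays without resveratrol and slide 3 only arrays with it. The permutation test of Sod1 therefore cannot tell resveratrol from slide, and rice arrays were also unevenly spread over the slides. For Sod1, RS minus Ctrl was -0.07, with overlap, and DJ526 minus DJ, which differ in the transferred gene too, was -0.18. For the interaction, 9 of the 10 genes were below 0, all but Prdx1, against 49.3% of all probes, with a median of -0.12 and a smallest adjusted p of 0.895. That count uses the same DJ526 arrays as the comparisons of DJ526 with single groups and is not independent of them. Counted over all comparisons, 29 of 90 member differences changed sign with normexp and 33 of 90 with slide as a block. At an unadjusted p under 0.05 limma had 0, 1 (Sod1) and 0 of the 10 genes for these 3 questions, against 4.57%, 10.1% and 6.09% of all probes.

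Within slides, where arrays of different diets shared a slide, the differences ran a little beyond the estimates between pairs of groups (-0.29 to 0.19). No slide held Ctrl arrays with RS or DJ526 arrays, so these values cannot address RS or DJ526 against Ctrl. DJ replicate 1 less the 3 Ctrl arrays of slide 1 gave -0.32 (Prdx3) to 0.21 (Gpx1) with a median of 0.01. DJ less RS on slide 2 gave -0.16 to 0.14 with a median of -0.04, and DJ526 less RS replicate 3 on slide 3 gave -0.21 to 0.17 with a median of -0.04, where 7 of the 10 genes were below 0. With 1 to 3 arrays on a side these values have no test.

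**Figure D3:**
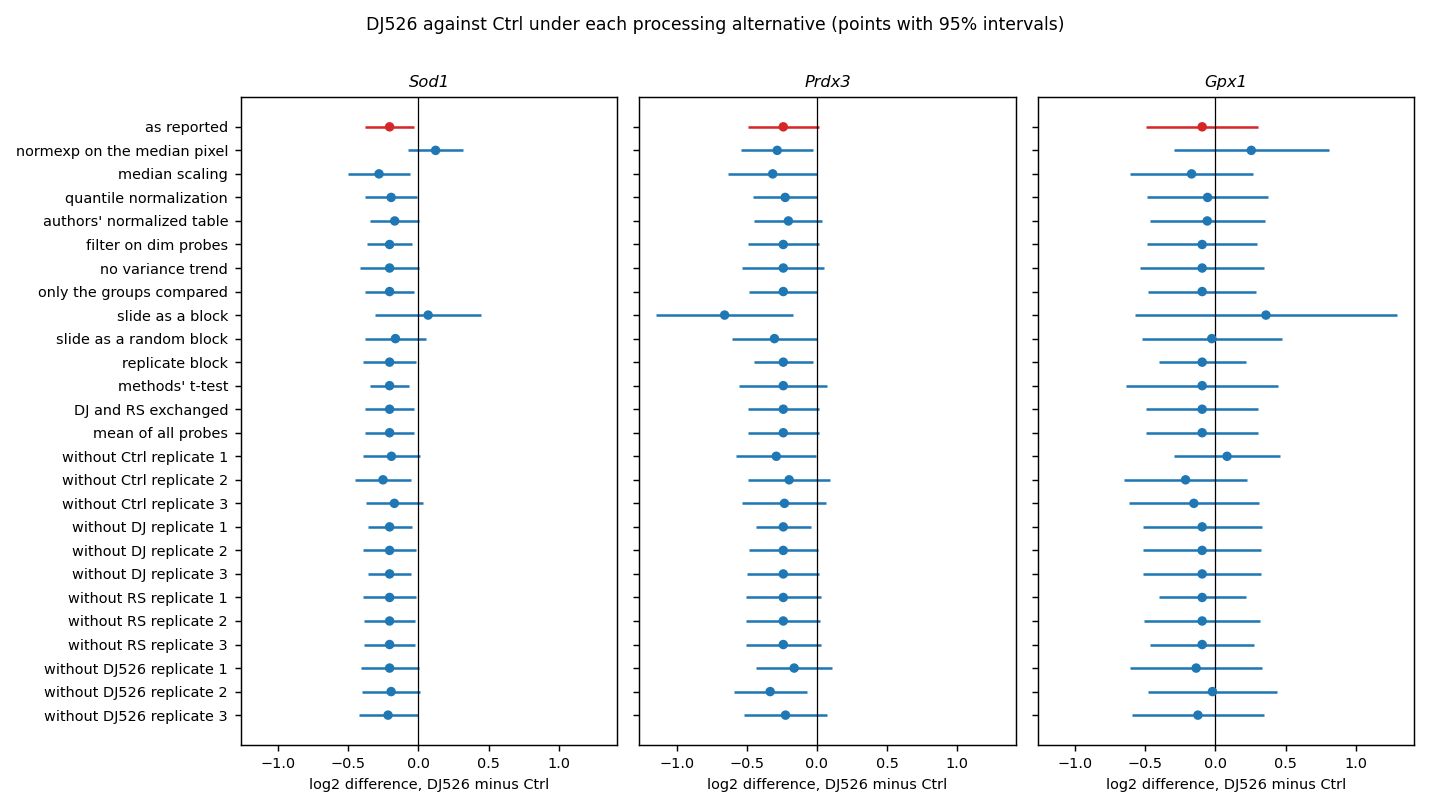
Log2 difference DJ526 minus Ctrl (horizontal axis; points with 95% intervals) of Sod1, Prdx3 and Gpx1 as reported and under each alternative way of processing (vertical axis). Sod1 is -0.21 as reported but 0.12 with normexp and 0.07 when slide is a block, and Prdx3 is below 0 under every alternative shown, from -0.66 to -0.16.

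Probes of the same gene followed each other only in part. Over the 12 arrays, Pearson's r between the levels of the probes, given as a description, was 0.13 for Cat and 0.44 for Prdx1. The 3 brighter probes of Prdx6 correlated at 0.65 to 0.89, and the faintest correlated with them at 0.13, 0.67 and 0.43, in order from the brightest. Probes of a gene share the RNA and the scaling of each array. The labels and files used here do not give the part of the transcript that each probe reads.

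**Figure D4:**
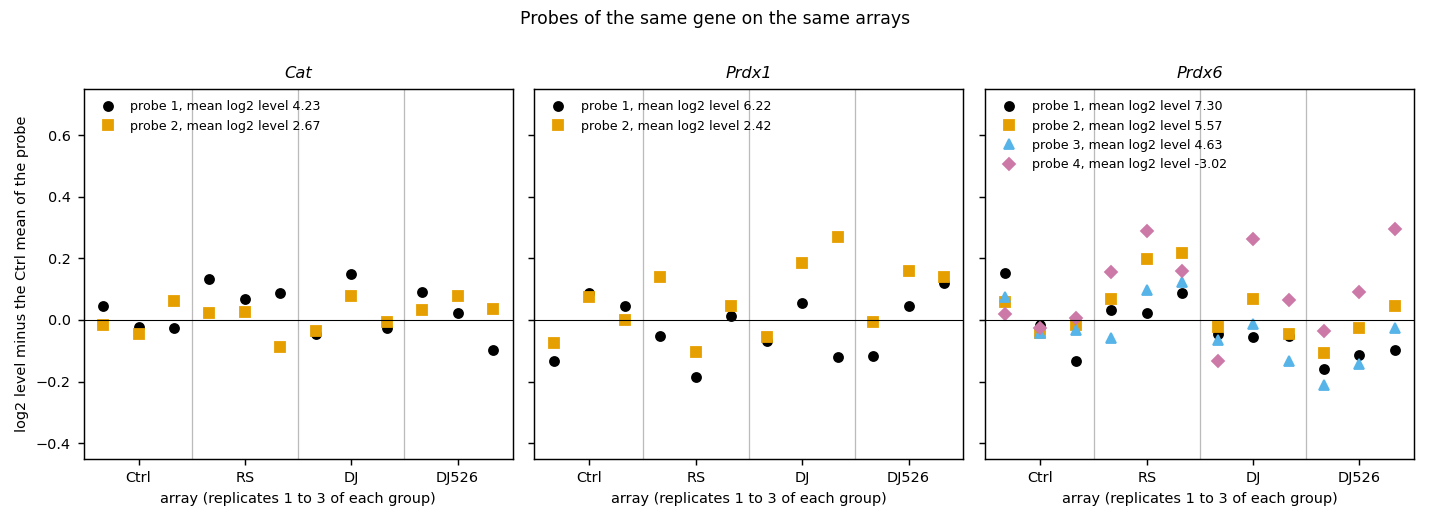
Level of each probe of Cat, Prdx1 and Prdx6 less its own Ctrl mean, in log2 units (vertical axis), on the 12 arrays by diet (horizontal axis). The 3 brighter Prdx6 probes are higher in RS than in DJ526 on average, the faintest lies above them on the DJ526 arrays, and the probes of Cat and of Prdx1 differ from each other by about as much as the groups do.

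Nor did the 10 genes move as a block from mouse to mouse. The 45 pairs of genes had a median Pearson r of 0.14 over the 12 arrays, between -0.61 (Sod1 and Sod3) and 0.51 (Sod1 and Gpx4). Among the 15554 genes with a probe well above background on all arrays, the genes most like a member were others. Gpx1 was most like Ech1, a peroxisomal and mitochondrial enzyme of fatty acid oxidation (r = 0.93), and Gss, the glutathione synthetase, was among its nearest 3 (r = 0.91). Prdx3 was most like Slc25a5, the mitochondrial ADP/ATP carrier (r = 0.94), Sod3 was most like the endothelial gene Cd93 (r = 0.94), and Sod2 was most like Slc35d1, a nucleotide sugar transporter (r = 0.92), with Gsta2, a glutathione transferase, among its nearest 3 (r = 0.86). For Cat no gene was above 0.77 (Sncg). These are the highest of many values over 12 arrays that share their scaling, and carry no test.

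The enzymes around these 10 genes were read from 7 lists, and limma called 0 genes of each list in each of the 9 comparisons. Of all probes, it called at most 0.0101% in any of them. The lists held 12 other peroxidases and dismutase helpers, 10 genes of the thioredoxin and glutaredoxin system, 12 of glutathione synthesis and recycling, 12 of Nrf2 and its classical targets, 8 of the selenoprotein machinery, 13 sources of superoxide and hydrogen peroxide, and 10 of trace metal handling, of which all had a probe but Gsta1 and Duox2. For DJ526 against Ctrl, the median differences in this order were -0.06, -0.08, -0.13, -0.03, 0.01, 0.08 and 0.14 log2 units, against 0.02 over all probes. At an unadjusted p under 0.05, limma had 1 of the other peroxidases and helpers lower, 1 of the thioredoxin system higher and 1 lower, 1 of the glutathione genes higher, 2 of the sources of superoxide and hydrogen peroxide higher and 1 of the metal genes higher, and 0 of the Nrf2 and selenoprotein lists, where 10.8% of all probes passed in either direction.

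The largest difference between DJ526 and Ctrl in each list, among genes detected on all 6 arrays, is given by name, and none passed. Duox1, a dual oxidase that makes hydrogen peroxide, had a mean level of -1.51 ± 0.10 in DJ526 against -1.86 ± 0.04 in Ctrl (SD, n = 3), and its arrays did not overlap (difference 0.36, SE 0.10, adjusted p = 0.229). Hamp, hepcidin, the liver hormone that limits iron export, was at 7.24 ± 0.32 against 6.12 ± 0.57, also without overlap (difference 1.12, SE 0.30, adjusted p = 0.237). The other 2 diets had means above Ctrl as well. RS was at -1.52 ± 0.11 for Duox1 and 7.29 ± 0.24 for Hamp (adjusted p = 0.563 and 0.532), and DJ, the rice without resveratrol, at -1.57 ± 0.07 and 6.92 ± 0.51 (adjusted p = 0.838 and 0.917). The arrays of DJ were apart from those of Ctrl for Duox1 and overlapped them for Hamp. Both genes were picked as the largest difference of their list. The share of all probes higher without overlap is not given here for DJ526 or DJ against Ctrl, so that the lack of overlap has no background beside it. These comparisons share the Ctrl arrays.

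In the remaining 5 lists the largest differences were no clearer. Secisbp2, which reads the selenocysteine signal in messages such as those of Gpx1 and Gpx4, was at 0.01 ± 0.13 in DJ526 and 0.17 ± 0.04 in Ctrl, without overlap (adjusted p = 0.565). Of all probes, 8.08% were lower in DJ526 than in Ctrl without overlap. Gpx2, a glutathione peroxidase of epithelia, was at -3.13 ± 0.20 and -2.42 ± 1.09 (adjusted p = 0.562). Txnip, which binds thioredoxin and answers to glucose, was at 3.30 ± 0.62 and 2.65 ± 0.64 (adjusted p = 0.661). G6pdx, which makes NADPH for the recycling of glutathione, was at 1.37 ± 0.72 and 2.24 ± 1.83 (adjusted p = 0.708). Osgin1, an oxidative stress target of Nrf2, was at 1.95 ± 0.27 and 2.34 ± 0.79 (adjusted p = 0.748), and its difference of -0.39 was 0.87 when slide was a block. Several of these moved with 1 Ctrl mouse. Without Ctrl replicate 2 the difference of Gpx2 went from -0.70 to -0.08, that of Txnip from 0.65 to 0.29 and that of G6pdx from -0.87 to -0.24, and without Ctrl replicate 1 that of Osgin1 was -0.0080. G6pdx was at -2.19 when slide was a block. The arrays of the last 4 genes overlapped between the groups.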

How the data were processed

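The authors deposited, for each of the 12 one-colour arrays, the spot intensity values of Feature Extraction (version 11.5.1.1, per the file headers), including a processed signal after background subtraction. They also deposited a table of normalized intensity values, in which 99.8% to 99.9% of the values of an array were, within a relative tolerance of 0.0001, the processed signal times 1 factor per array (0.959 to 1.08). Spots of a probe without outlier flags were averaged, and log2 levels relative to the 75th percentile of each array were computed from these deposited intensities, none of which was on a log2 scale. Depth was read as signal over background, and precision is limited by 3 mice per group. A value was missing on 1 or more arrays for 68 probes, none of them a member.

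All 39429 probes entered 1 limma fit (limma 3.58.1, R 4.3.3) with a mean for each group and a variance prior that depends on the signal (8 residual and, in the median, 2.98 prior degrees of freedom). Benjamini-Hochberg adjustment ran over the whole array (threshold 0.05), never over a list alone. The script was tested on simulated data. Exact permutation tests and tables used Python 3.11.15, numpy 2.4.6 and pandas 2.3.3, and figures matplotlib 3.10.9. Probes were named by RefSeq accession (27508 of 39429, 69.8%; gene table of GRCm38.p6). The scanner files name an older build, and no coordinate was carried between them.

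The genes named were all 10 members, the 3 genes most like each (a few of which are given), and in each list the gene with the largest difference. Members, lists and tests were chosen with earlier results of these data known. The alternatives were normexp (offset 50) on the median pixel, scaling by the median or by quantiles, the deposited table, a filter on dim probes, no variance trend, the compared groups alone, slide and replicate number as blocks, the methods' t-test, DJ and RS exchanged, the mean of all probes of a gene, and leaving out each mouse. The q-values of the methods' SAM were not computed here. The mean pixel was not among the columns used. Same-numbered replicates did not deviate together (18 correlations, -0.27 to 0.26), so that replicate numbers were not taken as pairs.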

Additional observations from a re-analysis of the deposited data

How the results depend on the processing

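None of the 10 genes was called by limma or by the methods' t-test under any of the 25 alternatives, in 2210 recomputed differences (smallest adjusted p = 0.218, Prdx3 in DJ526 against DJ without DJ replicate 1), and the median difference of the 10 genes moved by less than their median SD between mice in every comparison. Signs were less stable, as 204 of the 2210 differences changed sign, 29 of 90 with normexp and 33 of 90 with the slide as a block, a fit that also moved the median of all probes for DJ526 against Ctrl from 0.02 to -0.12. Every member was well above background on all arrays, and the number of mice and the layout of the slides limit these comparisons. The cause of the changes below was not tested.

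For DJ526 against Ctrl, the log2 differences that changed sign were as follows. With normexp, Sod1 was 0.12, Cat -0.16, Gpx1 0.26, Prdx1 -0.12, Prdx6 0.12 and Txn1 0.0075, and Sod1 for resveratrol against none was 0.085. With the slide as a block, Sod1 was 0.069, Sod2 0.22, Sod3 -0.042, Cat -0.087, Gpx1 0.36, Gpx4 0.22, Prdx1 -0.15 and Osgin1 0.87, and Sod1 for resveratrol against none was 0.056. With slide as a random block, Sod2 was 0.024, Cat -0.0084 and Prdx1 -0.0098. Median scaling gave Cat -0.070 and Prdx1 -0.060, quantile normalization gave Sod2 0.034 and Txn1 0.028, and the deposited normalized table gave Sod2 0.024 and Txn1 0.0036. Leaving out 1 mouse at a time gave ranges of -0.035 to 0.0093 for Sod2, -0.037 to 0.058 for Cat, -0.21 to 0.083 for Gpx1, -0.052 to 0.081 for Prdx1 and -0.067 to 0.0052 for Txn1. As reported, these were -0.01, 0.01, -0.09, 0.02 and -0.03, all smaller than their own SE.

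The background of calls over all probes moved more. As reported, limma called 2 probes for DJ526 against Ctrl, 4 against DJ and 3 against RS, and 0 elsewhere. In the same order the calls were 0, 1 and 1 with normexp, 0, 11 and 1 without the variance trend, 0, 0 and 0 with only the groups compared, 0, 1 and 0 by the methods' t-test, and 4, 14 and 8 with the filter on dim probes (30123 probes tested). With median scaling there were 4 against Ctrl and 10 against DJ. With quantile normalization there were 9 and 27, and 2 for resveratrol against none. With the slide as a block there were 1 for RS and 8 for DJ against Ctrl, 0 for DJ526 against Ctrl, 40 for DJ526 against RS, 3 for rice and 17 for the interaction. With slide as a random block there were 0 for DJ526 against Ctrl and 2 against DJ. Leaving out 1 mouse at a time gave 0 to 4 calls for RS and 0 to 1 for DJ against Ctrl, 0 to 173 for DJ526 against Ctrl, 0 to 107 against DJ, 0 to 28 against RS, 0 to 1 for resveratrol against none and 0 to 19 for the interaction. The highest of the DJ526 counts were all without RS replicate 3, an array outside the first 2 of these comparisons that entered through the shared estimate of the spread.

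With the replicate number as a replicate block, limma called 0 probes for DJ526 against Ctrl, 0 against DJ and 0 against RS, and 0 of the 10 genes. The labels do not say that the numbers pair mice, so that this block was not taken as a paired analysis. Exchanging the labels DJ and RS changed the sign of 30 of 90 differences and gave 0 calls among the 10 genes.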
